A study of Mus musculus with 12 samples.

Results

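The response to interferon beta was measured in mouse embryonic fibroblasts that lack both Ulk1 and Ulk2. The comparison set 3 arrays of Ulk1/2-/- cells (double knockout, DKO) given mouse IFNβ at 2500 IU/ml for 6 h against 3 arrays of untreated Ulk1/2-/- cells, 6 of the 12 arrays of the study. It was read over 8898 named genes that passed a detection filter. The other 6 arrays held Ulk1/2+/+ (wild-type, WT) fibroblasts, 3 untreated and 3 given the same IFNβ. All 4 groups are labelled as embryonic fibroblasts of strain C57BL/6J. Arrays were Illumina mouse bead arrays, which read the brightness of 1 labelled RNA preparation per array. Values below are background-corrected, quantile-normalized log2 intensities, so a difference of 1 is a factor of 2 in signal. Such levels compare samples for the same probe and do not rank different genes. A gene was called when its limma p-value, adjusted by the Benjamini-Hochberg method over the 8898 genes, was below 0.05. The labels do not say whether replicates were separate cultures, nor whether the knockout cells came from several embryos, so p-values measure only the spread between these samples.

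Type I interferons bind the receptor formed by IFNAR1 and IFNAR2 and activate the kinases JAK1 and TYK2. A complex that holds STAT2 and IRF9 then binds interferon-stimulated response elements (ISREs), and GAS elements are another class of interferon-responsive sequence. The genes switched on block viral replication, raise MHC class I antigen presentation and call in immune cells, and some of them shut the pathway down. ULK1 and ULK2 are related serine/threonine kinases best known for starting autophagy.

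The promoters of 8 genes are printed to show where an ISRE core lay, and all 8 were picked for holding a match. Cxcl10, Gbp2, Rsad2, Ifit3 and Ifi205 were among the 12 largest rises, and Ifi205, Ifi207, Ifi211 and Ifi213 are Ifi200 family genes with a called difference between DKO and WT cells. The windows of Phf11d, Ifi47, Psmb9 and Cmpk2, also among the largest rises, and of Sp100, Egr2, Nrap and Pstpip1, with called differences, held no ISRE core and are not printed. Each window runs from 250 bases before to 50 bases after the annotated start in the RefSeq sequence of GRCm38.p6, 5′ to 3′ along the gene. Capitals mark matches to the ISRE core, which is GAAA, any 2 bases and GAAA, or its other-strand form of TTTC, any 2 bases and TTTC. These letters are a description of the window and not a measured binding site.
Cxcl10 promoter, chr5:92348840-92349139, minus strand: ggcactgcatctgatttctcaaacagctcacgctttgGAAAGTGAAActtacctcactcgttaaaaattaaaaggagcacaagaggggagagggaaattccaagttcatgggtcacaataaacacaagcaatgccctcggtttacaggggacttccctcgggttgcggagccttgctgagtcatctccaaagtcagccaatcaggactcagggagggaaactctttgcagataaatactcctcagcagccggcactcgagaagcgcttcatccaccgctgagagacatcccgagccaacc
Gbp2 promoter, chr3:142620413-142620712, plus strand: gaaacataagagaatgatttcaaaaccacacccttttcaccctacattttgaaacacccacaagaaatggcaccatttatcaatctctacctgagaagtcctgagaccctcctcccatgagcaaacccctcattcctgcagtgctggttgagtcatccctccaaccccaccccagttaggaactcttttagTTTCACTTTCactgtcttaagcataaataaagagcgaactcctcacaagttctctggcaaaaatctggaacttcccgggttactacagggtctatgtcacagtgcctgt
Rsad2 promoter, chr12:26456403-26456702, minus strand: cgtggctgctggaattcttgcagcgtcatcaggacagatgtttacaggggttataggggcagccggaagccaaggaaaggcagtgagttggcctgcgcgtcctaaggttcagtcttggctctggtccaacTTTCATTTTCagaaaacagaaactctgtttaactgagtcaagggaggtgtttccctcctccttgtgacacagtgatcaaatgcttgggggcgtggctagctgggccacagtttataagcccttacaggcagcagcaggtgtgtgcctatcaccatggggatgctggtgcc
Ifit3 promoter, chr19:34583279-34583578, plus strand: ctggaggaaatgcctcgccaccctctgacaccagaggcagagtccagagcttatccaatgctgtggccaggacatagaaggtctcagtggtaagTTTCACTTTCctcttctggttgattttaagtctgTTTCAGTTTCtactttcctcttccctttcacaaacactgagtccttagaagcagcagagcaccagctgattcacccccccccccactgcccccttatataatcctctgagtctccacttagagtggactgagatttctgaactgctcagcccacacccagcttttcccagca
Ifi205 promoter, chr1:174031706-174032005, minus strand: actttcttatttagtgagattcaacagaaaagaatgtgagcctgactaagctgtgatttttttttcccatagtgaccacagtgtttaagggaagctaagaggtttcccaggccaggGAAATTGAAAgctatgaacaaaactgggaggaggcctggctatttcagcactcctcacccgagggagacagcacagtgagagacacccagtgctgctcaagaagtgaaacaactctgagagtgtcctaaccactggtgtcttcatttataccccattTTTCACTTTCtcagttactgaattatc
Ifi207 promoter, chr1:173741760-173742059, minus strand: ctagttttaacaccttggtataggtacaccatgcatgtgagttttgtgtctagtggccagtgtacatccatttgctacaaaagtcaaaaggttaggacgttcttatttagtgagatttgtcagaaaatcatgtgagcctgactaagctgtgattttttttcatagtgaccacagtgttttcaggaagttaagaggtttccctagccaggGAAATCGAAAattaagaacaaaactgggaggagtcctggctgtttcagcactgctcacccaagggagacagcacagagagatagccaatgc
Ifi211 promoter, chr1:173912997-173913296, minus strand: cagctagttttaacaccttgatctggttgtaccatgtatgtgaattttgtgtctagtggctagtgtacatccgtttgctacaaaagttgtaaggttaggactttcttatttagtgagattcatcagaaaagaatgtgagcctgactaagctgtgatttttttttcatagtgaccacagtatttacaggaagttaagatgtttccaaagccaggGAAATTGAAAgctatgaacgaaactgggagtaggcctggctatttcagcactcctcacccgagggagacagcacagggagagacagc
Ifi213 promoter, chr1:173599223-173599522, minus strand: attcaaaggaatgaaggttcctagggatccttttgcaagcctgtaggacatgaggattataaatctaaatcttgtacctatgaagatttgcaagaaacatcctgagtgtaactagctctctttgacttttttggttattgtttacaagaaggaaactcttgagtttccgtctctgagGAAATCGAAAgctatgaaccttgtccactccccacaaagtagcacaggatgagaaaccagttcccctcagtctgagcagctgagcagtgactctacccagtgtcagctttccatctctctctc

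The first capital base lay 213 bases before the start in Cxcl10, 59 in Gbp2 and 120 in Rsad2. Ifit3 held 2 matches, at 156 and 122 bases before the start. In the Ifi200 genes a match began 134 bases before the start in Ifi205, 41 in Ifi207, 37 in Ifi211 and 73 in Ifi213, and Ifi205 held a second match beyond its start.

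Neither deleted gene was detected in the knockout cells. Ulk1 read 4.55, 4.47 and 4.55 on the untreated and 4.64, 4.50 and 4.41 on the treated DKO arrays, none of them detected, against 6.37 to 6.80 on the 6 WT arrays. Ulk2 was likewise detected on 0 of 6 DKO and on 6 of 6 WT arrays. Each array detected 30.3% to 33.7% of its 45281 probes, from 13732 to 15240. Over the 8898 genes the DKO arrays correlated at 0.989 to 0.996 within the untreated group, 0.988 to 0.995 within the treated group and 0.969 to 0.977 between them. The arrays fell into a set of 6 with lower median intensity (86.5 to 87.9) and a set of 6 with higher (97.5 to 99.7), and replicate 1 of each DKO group lay in the lower set. Of 16 fibroblast markers on the array, 11 were detected on all 6 DKO arrays, Col1a1, Col3a1 and Vim among them, and Pdgfra, Dcn, Lum and Fap on none. Their summed linear level was 12786 to 14869 untreated and 13512 to 14400 treated. Of 12 leukocyte markers, 10 were detected on 0 of 6 DKO arrays, including Ptprc, Csf1r and Itgam, and Cd14 and Cd3e on all 6. The summed level of the 12 was 346 to 395 untreated and 344 to 381 treated. The summed level went from 332 to 358 untreated to 390 to 472 treated for 8 endothelial markers, of which 7 were detected on 0 of 6 arrays, Flt1 being the other. For 7 skeletal muscle markers it went from 480 to 541 to 334 to 366, with Acta1 alone detected on all 6 arrays. Smooth muscle (26390 to 30781 and 27057 to 29144), cartilage and bone (566 to 687 and 472 to 599) and pluripotency markers (124 to 131 and 125 to 132) overlapped between untreated and treated arrays. Epithelial markers stood at 373 to 432 and 335 to 357, neural at 2068 to 2105 and 2147 to 2374, and adipocyte at 129 to 141 and 142 to 145. The part of these levels in the results was not tested. In such bulk RNA, fewer cells of a type and less RNA per cell cannot be told apart.

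IFNβ raised 556 genes and lowered 459 genes in DKO cells, 6.25% and 5.16% of those tested. Together these 1015 calls were 11.4% of tested genes, and 2107 genes (23.7%) had an unadjusted p below 0.05. The rises were much the larger: 226 genes (2.54%) rose at least 2-fold, 87 (0.978%) at least 4-fold, 29 (0.326%) at least 8-fold and 6 (0.0674%) at least 16-fold. In the other direction 5 genes (0.0562%) fell at least 2-fold and 0 fell 4-fold, so that 231 genes (2.60%) changed at least 2-fold. The median change was 0.82 among the called rises and -0.50 among the called falls, against -0.07 over all tested genes. Of the 556 rises, 446 were detected on all 6 DKO arrays and 70 were below detection on all 3 untreated arrays. Treated and untreated DKO arrays did not overlap for 2574 tested genes (28.9%), with treated arrays above for 10.8% and below for 18.2%. The same held for 555 of the 556 rises and 455 of the 459 falls, so groups that stand apart add little to a call. With the replicate number as a block within each genotype, 1923 genes were called, 810 higher and 1113 lower. Rises made up 54.8% of calls, 66.3% after cyclic loess, 40.7% after median scaling and 42.1% under the replicate block. The count of falls depended on single arrays, and was 242 without untreated replicate 1, 271 without untreated replicate 2, 246 without IFNβ replicate 2 and 233 without IFNβ replicate 3. Rises numbered 461 to 499 without any 1 of the 6 DKO arrays. Within the lower-intensity set, with 1 array per DKO group, whose spread is assumed to be that of the WT arrays, 307 genes were called, and within the higher set 1115.

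**Figure D1:**
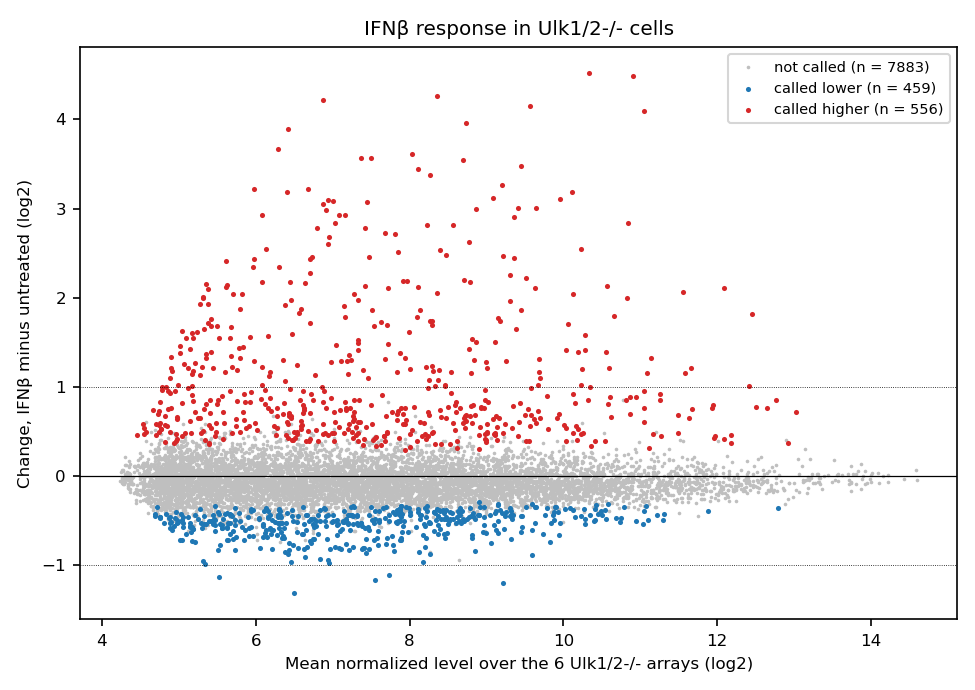
Each point is a tested gene, with its mean log2 level over the 6 Ulk1/2-/- arrays on the horizontal axis and its log2 change with IFNβ on the vertical axis. Dotted lines mark 2-fold. Rises reached 4.52, while falls ended at -1.31.

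An ISRE core was present in 281 of the 7270 tested genes with a window, which is 3.87%. Among genes called higher with IFNβ in DKO cells the share was 16.3% (72 of 441), among those at least 2-fold higher 25.1% (45 of 179) and among those at least 4-fold higher 35.9% (23 of 64). It was 2.01% (7 of 349) among genes called lower and 3.12% among genes not called. The GAS pattern TTCNNNGAA, which reads the same on both strands, was present in 8.17% of tested genes with a window, 15.6% of those at least 2-fold higher and 9.46% of those called lower. The CArG box, the serum response factor pattern taken as a comparison, was in 1.83% of tested genes and 2.79% of those at least 2-fold higher. Genes can have several windows, and a gene was counted if any of them held a match. Phf11d, Ifi47, Psmb9 and Cmpk2 also held no GAS match, and Hap1 held a GAS match alone.

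**Figure D2:**
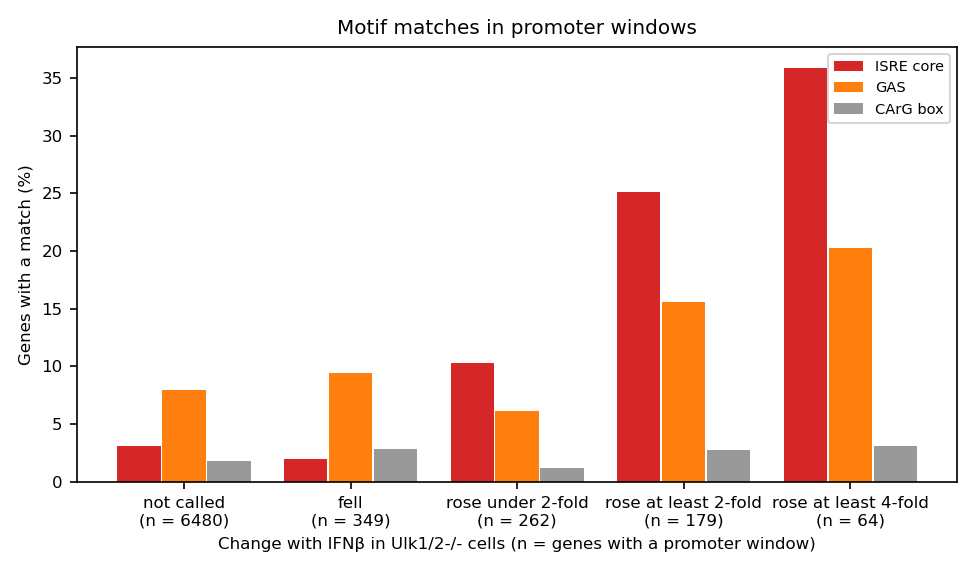
Bars give the percentage of genes whose promoter window holds an ISRE core, a GAS pattern or a CArG box, for genes grouped by their change with IFNβ in Ulk1/2-/- cells. The ISRE share was 3.12% in genes not called, 2.01% in genes that fell and 35.9% in genes that rose at least 4-fold, a group that is part of the at least 2-fold group.

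The largest rise belonged to Cxcl10, the chemokine that draws CXCR3-bearing T cells. It read 8.37, 8.01 and 7.83 on the untreated and 12.60, 12.49 and 12.66 on the treated arrays. All treated arrays stood far above all untreated arrays, and the change was 4.52 ± 0.20 (SE), a 22.9-fold rise (adjusted p = 1.9e-09, limma). Gbp2, a guanylate-binding GTPase that attacks the vacuoles of intracellular pathogens, read 9.13, 8.70 and 8.15 untreated and 13.46, 13.03 and 12.97 treated. Its 22.5-fold rise (4.49 ± 0.26, adjusted p = 2.2e-08) also left a wide gap between the groups. Rsad2 encodes viperin, an enzyme that makes a chain-terminating nucleotide against viral polymerases. It read 7.74, 7.57 and 7.15 untreated and 11.84, 11.62 and 11.46 treated, a rise of 4.15 ± 0.24 (adjusted p = 2.2e-08). Cmpk2, its neighbour on chromosome 12, rose by 3.55 ± 0.17. Ifit3, an interferon-induced antiviral gene, read 9.43, 9.02 and 8.59 untreated and 13.20, 13.08 and 13.02 treated. Its treated arrays lay close together and far above all untreated arrays (4.09 ± 0.27, adjusted p = 7.7e-08).

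The other genes among the 12 largest rises were Phf11d (4.26), Ifi205 (4.22), Hap1 (3.96), Ifi47 (3.61), Oas2 (3.57), Psmb9 (3.57) and Tap2 (3.48), each with the groups apart. Hap1 encodes huntingtin-associated protein 1 and is best known in neurons. A second Hap1 probe rose by 0.51 (adjusted p = 0.014), so the size of that rise depends on the probe. Some genes went from below detection to clear signal, and their fold is a lower bound, the treated mean against the lowest signal counted as detected on each untreated array. Phf11a rose from 4.48, 4.56 and 4.40, with no array detected, to 8.42, 8.56 and 8.14, at least 11.4-fold. Mpeg1, a pore-forming protein best known from macrophages, rose at least 6.63-fold. Beside it, 10 of the 12 leukocyte markers stayed at 0 of 6 arrays, and Cd14 and Cd3e were detected on all 6. The same bound was at least 6.47-fold for Irf5, 3.91-fold for the antiviral GTPase Mx1, 3.57-fold for Tgtp1 and 3.52-fold for Crybg1.

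**Figure D3:**
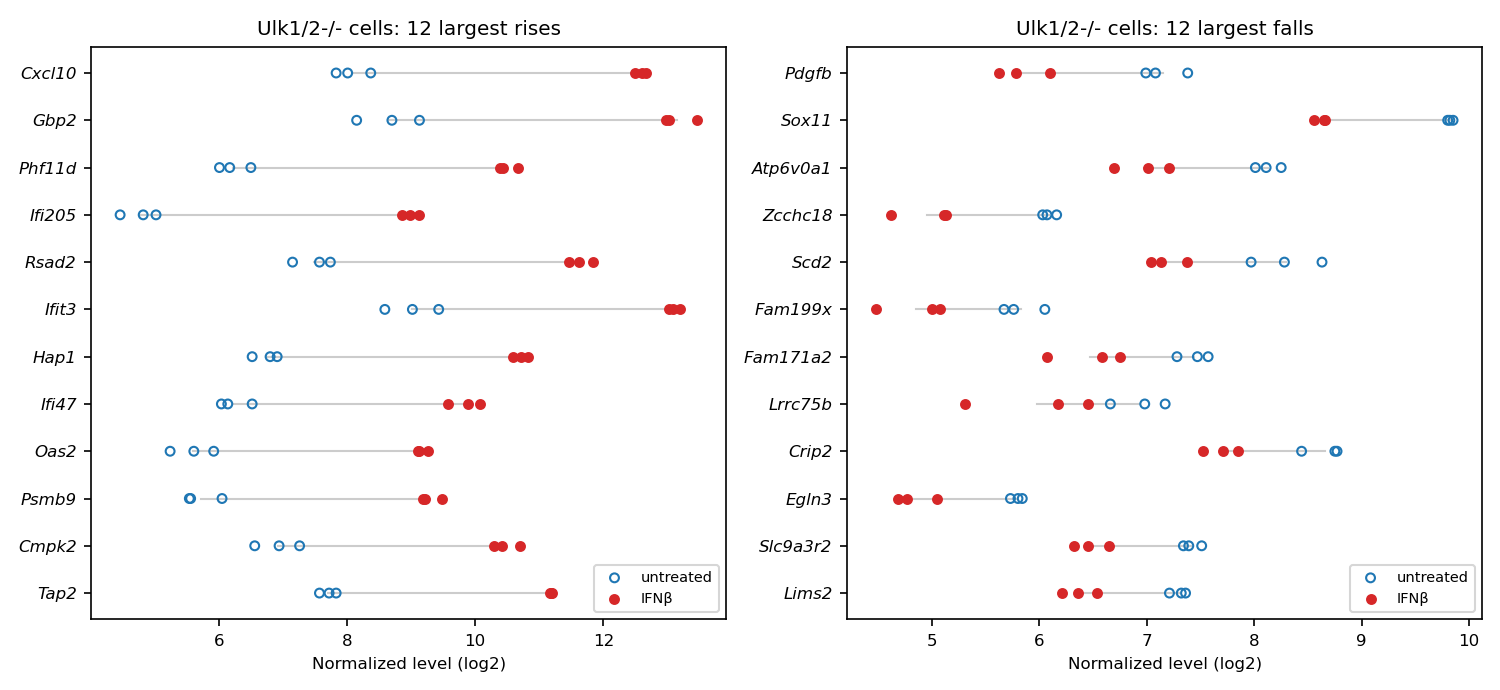
Normalized log2 level on each Ulk1/2-/- array for the 12 largest rises (left) and the 12 largest falls (right) among genes detected on at least 1 array of each group, with open circles for untreated and filled circles for IFNβ. Grey lines join the group means. The groups are apart for every gene shown, as they were for 28.9% of all tested genes. The group means differ by 4.52 in Cxcl10 and by at most 1.31 in the falls.

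Genes were next read in groups by role, over the members that passed the detection filter. A member that passed it through the treated DKO arrays alone had to rise, so counts of rises describe the members tested and not all those on the array. Over all tested genes 6.25% rose and 5.16% fell, 11.4% in all, with a median change of -0.07, and the counts below are read beside these shares. Signalling components came first. Of 7 tested receptor and Janus kinase genes, 1 rose and 0 fell, with a median change of 0.04. That is a share of 14.3%, near that over all genes, and nothing is read from it. Jak2, a kinase of other cytokine receptors, read 7.15, 6.92 and 6.99 untreated and 8.49, 8.19 and 8.32 treated (1.31 ± 0.18, adjusted p = 1.7e-04). Ifnar2 changed by -0.07 and Tyk2 by 0.12, and neither passed. Of 10 tested STAT and IRF genes, 6 rose and 0 fell, with a median of 0.61. Irf7, the factor that drives further interferon production, read 5.96, 5.63 and 5.48 untreated and 8.61, 8.57 and 8.67 treated. All its treated arrays exceeded all untreated arrays, and the rise was 2.93 ± 0.19 (adjusted p = 5.8e-08). Stat2 rose from 5.36, 5.04 and 5.00 to 7.30, 7.47 and 7.64, a 5.07-fold rise. Irf1 rose by 1.41 (4 other probes gave 0.60 to 1.47, all called) and Irf9, the DNA-binding partner of STAT2, by 0.79. Irf3, which is activated by phosphorylation in sensing cells, changed by -0.19 and did not pass.

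Genes that restrain interferon signalling split. Of 16 tested feedback genes, 3 rose and 1 fell, with a median of -0.05. Usp18 removes ISG15 from proteins and displaces JAK1 from IFNAR2. It read 11.28, 11.02 and 10.83 untreated and 13.14, 13.11 and 13.21 treated, a 4.31-fold rise (2.11 ± 0.22, adjusted p = 9.3e-06). Socs3 read 7.84, 7.67 and 7.84 untreated and 9.07, 9.00 and 8.87 treated, a rise of 1.19 ± 0.13. Socs1 changed by 0.65 and did not pass (adjusted p = 0.061, and 0.0065 with the replicate block). It was called without IFNβ replicate 1 (0.94, 0.0020) or WT IFNβ replicate 3 (0.65, 0.046). Ptpn2 did not pass. The member that fell was Cish, at -0.70, and its call was lost without untreated replicate 1 (-0.71, adjusted p = 0.064), untreated replicate 2 (-0.58, 0.12), IFNβ replicate 2 (-0.58, 0.12) or IFNβ replicate 3 (-0.67, 0.089). Isg15, a ubiquitin-like modifier that also acts in feedback, already stood at 11.34, 11.72 and 11.56 untreated and reached 13.21, 13.41 and 13.46 (1.82 ± 0.22, adjusted p = 4.6e-05). Its activating enzyme Uba7 rose by 3.27 and its conjugating enzyme Ube2l6 by 2.73. Of 6 tested genes listed with the ISG15 system, 4 rose (Isg15, Uba7, Ube2l6 and Usp18) and 0 fell. The other members of that list, Herc3 (0.14) and Herc4 (-0.16), did not pass.

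Of 42 direct antiviral effector genes on the array, 34 were tested and 8 were not. Of the 34, 33 passed upward, 28 of them at least 2-fold, and 0 fell, with a median change of 1.74. Apobec3, Ch25h, Ifit1bl1, Mx1, Nmi and Oas1b, 6 of the 33, were below detection on all 3 untreated arrays. The exception was Bst2 (tetherin), which read 11.26, 11.31 and 11.50 untreated and 11.85, 11.99 and 11.43 treated. Its groups overlapped and it did not pass (0.40, adjusted p = 0.13), but it was called without IFNβ replicate 3 (0.56, 0.036). Beyond Rsad2, Ifit3 and Cmpk2, Oas2 rose by 3.57, Mx2 by 3.38 and Oasl1 by 2.99. Some Oas genes, but not all, encode enzymes that make the second messenger that activates RNase L. Oas2 and 5 Oas1 genes, Oas1c, Oas1b, Oas1g, Oas1a and Oas1d, rose at least 2-fold as an unbroken run on chromosome 5. Probes for such near-identical copies may read each other's transcripts. Oasl2 rose by 2.13 ± 0.27, and by 2.14 with another probe, but a further Oasl2 probe gave 0.33 and did not pass (adjusted p = 0.11). Eif2ak2, which encodes the RNA-activated kinase PKR, rose by 1.33, the RNA editor Adar by 1.33 and the membrane protein Ifitm3 by 0.85.

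Innate immune sensors and their adaptors rose in 11 of 18 tested cases (22 on the array), with 0 falls and a median of 1.04, and 2 of the 11 were undetected before treatment. Dhx58 rose by 2.84, the DNA exonuclease Trex1 by 2.72, and Zbp1 by 2.28. Tlr3, a sensor of double-stranded RNA, was below detection on 3 of 3 untreated arrays and rose at least 3.0-fold. Ifih1, which encodes MDA5, rose at least 2.80-fold, also from below detection. Myd88, the adaptor of most Toll-like receptors, read 9.80, 9.76 and 9.72 untreated and 11.61, 11.62 and 11.44 treated. Its rise of 1.80 ± 0.09 had the same size in WT cells, with a difference of 0.00 and a 95% interval of -0.28 to 0.28.

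Of 19 interferon-inducible GTPase genes on the array, 13 were tested and all 13 rose, with a median of 2.14, 5 of them from below detection. Gbp2, Gbp3 (3.19) and Gbp7 (3.07) belong to the large guanylate-binding proteins, and Ifi47 (3.61), Igtp (2.91), Iigp1 (at least 1.82-fold, from below detection) and Irgm1 (0.72) to the immunity-related GTPases. Irgm1 rose by 1.22 and 1.56 with its other probes.

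MHC class I presentation genes rose in 19 of 23 tested cases (28 on the array), with 0 falls and a median of 1.74, and 1 of the 19 was undetected before treatment. Psmb9, a catalytic subunit of the immunoproteasome, read 6.05, 5.54 and 5.56 untreated and 9.18, 9.48 and 9.21 treated (3.57 ± 0.19, adjusted p = 8.9e-09). Tap1 and Tap2, which form the peptide transporter, rose by 2.78 and 3.48, and Psmb8 and Psmb10 by 3.01 and 2.84. These genes sit together: Psmb9, Tap1, Psmb8 and Tap2 were an unbroken run of risers on chromosome 17. Nlrc5, the class I transactivator, rose from 5.01, 4.83 and 4.59 to 8.36, 7.84 and 7.80 (3.19 ± 0.17). Among the class I heavy chains, H2-D1 rose by 1.21. H2-K1 read 9.17, 9.80 and 9.50 untreated and 10.34, 11.24 and 11.07 treated. The groups were apart, with a wide spread (1.39 ± 0.33, adjusted p = 0.012). The call was lost without untreated replicate 1 (1.23, 0.056), IFNβ replicate 2 (1.21, 0.063) or IFNβ replicate 3 (1.29, 0.054). Other H2-K1 probes rose by 1.27 (adjusted p = 3.5e-06) and 1.06 (0.019), both called. B2m, the light chain that the heavy chains share, read 12.72, 12.74 and 12.60 untreated and 13.26, 13.01 and 13.04 treated. All treated arrays were higher, but the change of 0.41 did not pass (adjusted p = 0.081, and 0.0082 with the replicate block), and it was called without WT untreated replicate 1 (0.42, 0.032). Heavy chain genes are near copies of each other, so single H2-Q and H2-T values are uncertain.

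Of 40 chemokine and cytokine genes on the array, 19 did not pass the filter and 21 were tested. Of these 11 rose, 3 of them from below detection, and 0 fell, with a median of 0.59. After Cxcl10 came Cxcl9, its neighbour and fellow CXCR3 ligand, which was undetected on all untreated arrays at 4.40, 4.28 and 4.25 and read 6.59, 6.38 and 5.75 treated, at least 2.61-fold higher. Il18 rose by 1.55, Il15 by 1.37 and the monocyte chemokine Ccl7 by 1.21. Another Il15 probe rose by 0.70 and a further probe did not pass (0.08, adjusted p = 0.71). Ccl2 rose by 0.77 and was not called without untreated replicate 1 (0.66, 0.13), untreated replicate 3 (0.70, 0.11), IFNβ replicate 2 (0.62, 0.15) or IFNβ replicate 3 (0.78, 0.087). Csf1 changed by 0.60 and did not pass (adjusted p = 0.31, and 0.0048 with the replicate block).

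Genes of cell death and immune checkpoints rose in 9 of 19 tested cases (25 on the array), with 0 falls and a median of 0.28, and 3 of the 9 were undetected before treatment. Cd274, which encodes PD-L1, read 5.41, 5.48 and 5.16 untreated and 8.43, 8.32 and 8.45 treated, an 8.29-fold rise. Mlkl, the executioner of necroptosis, rose by 3.01 and the pore-former Gsdmd by 1.92 (0.82 and 1.33 with other probes). Casp4, an inflammatory caspase, rose at least 2.14-fold from below detection, but another probe did not pass (-0.01, adjusted p = 0.96). That probe rose by 2.23 in WT cells, with a called difference of -2.25 (adjusted p = 5.9e-06). Fas changed by -0.21 and Casp8 by 0.28, and neither passed, though Casp8 did with the replicate block (adjusted p = 0.040). PARP and nuclear body genes rose in 12 of 17 cases with a median of 1.22, led by Parp14 (3.11), Sp100 (3.10) and Parp12 (2.48). Further Parp14 probes rose by 1.42 and 0.86. TRIM genes rose in 8 of 25 cases with a median of 0.04, led by Trim30a (2.51), Pml (2.04) and Trim21 (1.86), and another Trim21 probe did not pass (0.40, adjusted p = 0.16). Ly6 and related surface genes rose in 3 of 8 cases, Ly6c1 by 1.23 and Ly6e by 1.16. Vcam1, at 0.32, was the other, and its call was lost without any 1 of the 6 DKO arrays or WT untreated replicate 2 (adjusted p 0.052 to 0.13). Of 9 Slfn and Phf11 genes on the array 7 were not tested, all Slfn genes among them. The 2 tested, Phf11a and Phf11d, rose, Phf11a from below detection. Of the Ifi27 family, Ifi27 fell by 0.50 and Ifi27l2a changed by 0.85 without passing (adjusted p = 0.11, and 0.0012 with the replicate block). Without WT untreated replicate 1 it was called (0.85, 0.038). Of 3 complement genes, Cd59a fell by 0.58 and Cfb rose at least 1.24-fold from below detection. The Cfb call was lost without any of 5 DKO arrays, the exception being IFNβ replicate 1 (adjusted p 0.055 to 0.11).

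**Figure D4:**
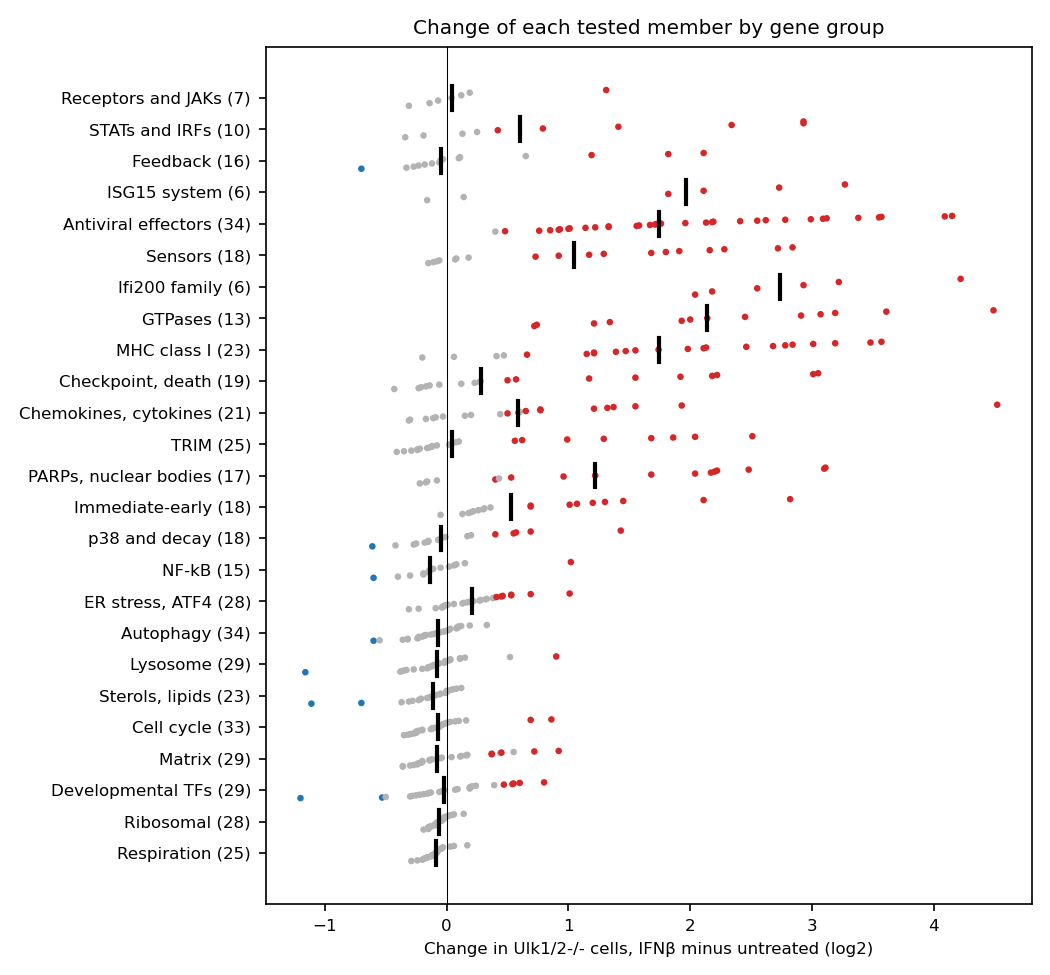
Log2 change with IFNβ in Ulk1/2-/- cells for each tested member of 25 gene groups, with the number tested in brackets. Red points were called higher, blue points lower and grey points neither, and black bars are medians. The antiviral effector, GTPase, MHC class I and Ifi200 groups have medians of 1.74 to 2.74, while the ribosomal and respiration groups have no called member.

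Of 10 genes of the Ifi200 family on the array, 6 were tested, and 4 of these had a called difference between the DKO and the WT response. The family encodes DNA-binding proteins of the nucleus and cytosol, some of which sense DNA. In DKO cells 6 of 6 rose, with a median of 2.74. They are adjacent on chromosome 1 in the order Ifi213, Ifi207, Ifi204, Ifi211, Ifi202b and Ifi205. Ifi205 read 4.82, 5.02 and 4.46 on the untreated DKO arrays, 1 of them detected, and 8.85, 8.99 and 9.12 on the treated (4.22 ± 0.13, adjusted p = 1.7e-10). On the 6 WT arrays it was undetected throughout, from 4.16 to 4.57, and the difference between the responses was 3.92 ± 0.19 (adjusted p = 8.6e-08). A second Ifi205 probe rose by 2.37, with a called difference of 2.35, and a further probe by 1.43, with a difference of 0.72 that did not pass (adjusted p = 0.33). Ifi211 read 4.87, 4.82 and 4.89 untreated and 7.39, 7.62 and 7.22 treated, 2 of the untreated arrays detected, against 4.20 to 4.39 over the WT arrays, none detected (difference 2.55 ± 0.16, adjusted p = 1.3e-06). Ifi213 was detected on all 12 arrays and rose from 5.47, 5.31 and 5.30 to 7.80, 7.59 and 7.22 in DKO cells. Its WT change was 0.22 and did not pass (difference 1.96 ± 0.20, adjusted p = 1.4e-04). Ifi207 rose in both genotypes, by 3.22 in DKO cells and by at least 2.54-fold in WT cells, where it was undetected on all 3 untreated arrays. The fitted difference of 1.41 ± 0.17 (adjusted p = 5.6e-04) rests on that undetected level, so it does not show a larger response in DKO cells. The remaining members did not differ detectably between genotypes: Ifi204 rose by 2.04 in DKO and 2.14 in WT, a difference with a 95% interval of -0.46 to 0.26, and Ifi202b by 2.93 and 3.59, with an interval of -1.22 to -0.11 but an adjusted p of 0.41. A second Ifi204 probe had a difference of 1.23 (adjusted p = 0.0027). These genes are close copies, and which transcripts each probe reads was not tested.

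Across all tested genes, 93 (1.05%) had a response that differed between DKO and WT cells, 27 with a larger value in DKO (0.303%) and 66 with a smaller (0.742%). The replicate block gave 254. The count of 27 was 17 without WT untreated replicate 2, without DKO untreated replicate 2 or without DKO IFNβ replicate 3. Of the 556 DKO rises, 22 had a larger fitted value than in WT cells by this test, 47 a smaller and 487 were not called different. Among the 22, 9 genes were undetected on all 6 WT arrays and 5 more on the 3 untreated WT arrays alone, which makes the WT rise of those 5 a lower bound. Most rises were shared: 448 were also called in WT cells, 80.6% of the DKO rises and 62.3% of the 719 WT rises. Of the 459 falls, 261 were shared, 56.9% of DKO falls and 27.5% of the 949 WT falls. Of the rest, 2 DKO rises were called lower in WT cells and 106 were not called there, but 95 of these had a WT change above 0 and 15 had a called difference. The WT comparison called 18.7% of tested genes, 8.08% higher and 10.7% lower, and it has no array in common with the DKO comparison.

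Sp100, a nuclear body protein whose gene also lies on chromosome 1, was among these 5. It read 5.65, 5.21 and 5.32 untreated and 8.34, 8.53 and 8.61 treated in DKO cells, a change of 3.10, and rose at least 2.17-fold in WT cells. The fitted difference of 1.49 ± 0.17 (adjusted p = 3.3e-04) rests on the undetected WT level and does not show a larger response in DKO cells. Nrap, an actin-organizing protein best known from muscle, rose from below detection by at least 2.17-fold. Serpinb9f, a serpin, did so by at least 1.80-fold. Neither Nrap nor Serpinb9f was detected on any WT array, and the differences were 1.42 and 1.29. Pstpip1, a cytoskeletal adaptor, rose by 1.44 in DKO cells and was also undetected on all WT arrays.

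The smaller responses in DKO cells included effectors whose untreated level was called higher there. Rsad2 rose by 6.78 in WT and 4.15 in DKO cells, a difference of -2.63 ± 0.34 (adjusted p = 0.0011). Its untreated level was 5.96, 4.77 and 5.18 in WT and 7.74, 7.57 and 7.15 in DKO cells, and the treated ranges were 11.91 to 12.19 and 11.46 to 11.84. Ifit3 had a difference of -2.65, Usp18 -2.26, Cmpk2 -2.25, Isg15 -2.19 and Cxcl10 -1.99, the last with another probe at -1.26 that did not pass (adjusted p = 0.45). Of the 47 smaller rises, 35 already stood higher in DKO cells before treatment by the same model, a comparison that called 33.9% of tested genes, 15.9% higher. The same untreated DKO arrays enter both contrasts, so the counts are not independent. Of the untreated arrays, 2 WT but only 1 DKO array lay in the lower-intensity set, and the part of this was not tested. Of the 47, 8 were undetected on all 3 untreated WT arrays, so their WT rise is a lower bound. Cxcl9, among these, was also undetected in untreated DKO cells, so both its rises start from undetected levels. Its difference was -2.19 ± 0.26 (adjusted p = 5.9e-04). Gch1, the entry enzyme of tetrahydrobiopterin synthesis, read 6.84, 6.84 and 6.69 untreated and 6.92, 6.93 and 6.84 treated in DKO cells. The groups overlap, and the change of 0.11 did not pass. In WT cells Gch1 rose from 8.03, 7.52 and 8.03 to 10.52, 10.15 and 10.38, a difference of -2.38 ± 0.20 (adjusted p = 3.9e-05). A second Gch1 probe changed by 0.01 in DKO cells, with a difference of -0.94 that did not pass (adjusted p = 0.10).

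**Figure D5:**
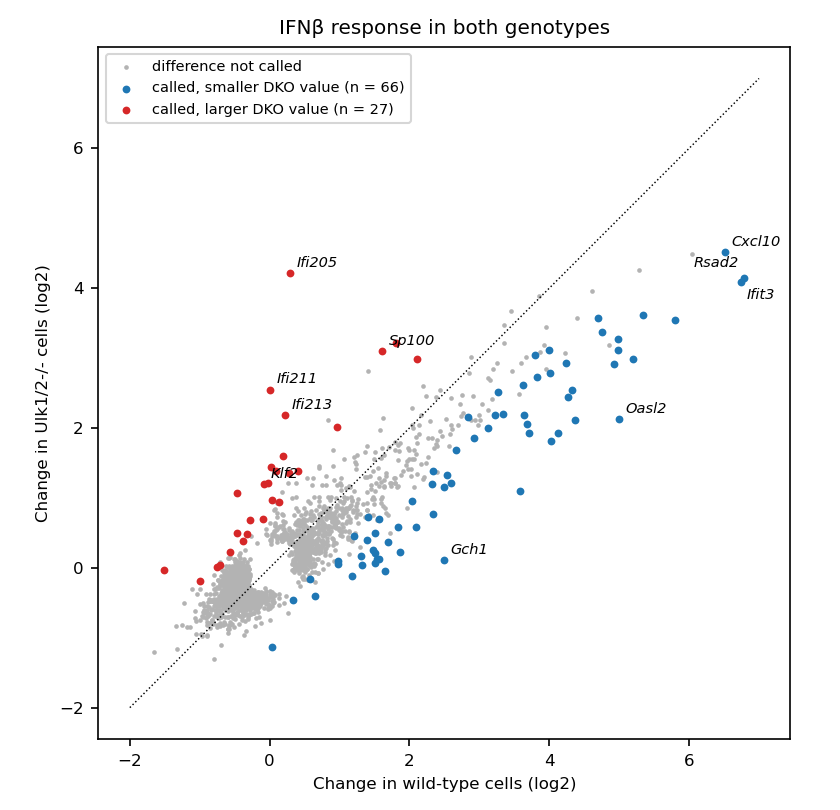
Log2 change with IFNβ in wild-type (horizontal) and Ulk1/2-/- cells (vertical) for genes called in either, with the dotted line marking equal change. Coloured points had a called difference, 27 with a larger value in Ulk1/2-/- cells and 66 with a smaller. Ifi205 stands at 4.22 against 0.29, and Rsad2 at 4.15 against 6.78.

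Immediate-early transcription factor genes, which cells switch on within minutes of growth or stress signals, rose in 9 of 18 cases with 0 falls and a median of 0.53. Fosb read 8.13, 6.79 and 6.53 untreated and 9.88, 10.11 and 9.93 treated (2.82 ± 0.31, adjusted p = 1.9e-05). Fos read 9.68, 8.17 and 7.89 untreated and 10.66, 10.92 and 10.49 treated (2.11 ± 0.37). For both, untreated replicate 1, from the lower-intensity set, stood well above the other untreated arrays, yet below every treated array. Within the lower set alone Fos changed by 0.99 and did not pass (adjusted p = 0.17). Egr1 rose by 1.01, Atf3 by 1.45, Klf4 by 1.30 (0.49 and 1.27 with other probes) and Jun by 0.69. Junb rose by 0.69, a call lost without untreated replicate 3 (0.56, 0.084) or IFNβ replicate 2 (0.56, 0.091). Klf2 read 7.50, 7.29 and 7.40 untreated and 8.63, 8.58 and 8.57 treated (1.20 ± 0.14), against a WT change of -0.08 (difference 1.28 ± 0.20, adjusted p = 0.0044). Egr2 read 6.03, 5.90 and 5.58 untreated and 7.31, 6.91 and 6.49 treated (1.07 ± 0.18), against -0.47 in WT (difference 1.54 ± 0.26, adjusted p = 0.0064). For Fos and Fosb the differences, 1.29 and 1.43, did not pass (adjusted p = 0.43 and 0.22).

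Stress and MAPK-related groups are read against the 11.4% of all tested genes that were called. Of 18 genes of the p38 pathway and its mRNA decay targets, 5 rose and 1 fell, 33.3% in all, with 1 rise of at least 2-fold. Zfp36, which destabilizes inflammatory mRNAs, read 8.37, 7.92 and 7.88 untreated and 9.59, 9.48 and 9.40 treated (1.43 ± 0.17), the phosphatase gene Dusp1 rose by 0.69 and Mapk12 fell by 0.61 (another probe -0.12, adjusted p = 0.68). Of 15 NF-kB genes 2 were called, a share of 13.3% near that over all genes. Nfkbiz rose by 1.02 and Relb fell by 0.60, and Relb was not called without IFNβ replicate 3 (-0.50, 0.051). Nfkbia, the inhibitor IκBα, changed by -0.40 in DKO cells without passing (adjusted p = 0.052, and 0.018 with the replicate block) and by 0.65 in WT cells. It was called without WT IFNβ replicate 1 (-0.40, 0.016) or replicate 3 (-0.40, 0.021). The difference of -1.05 passed (adjusted p = 0.0064), but a second probe at -0.66 did not (adjusted p = 0.69). Of 28 genes of ER stress and the ATF4 response, 7 rose and 0 fell, with a median of 0.21, led by the factor gene Ddit3 (8.03, 7.97 and 7.88 untreated, 9.10, 8.99 and 8.81 treated, a 2.01-fold rise) and Ppp1r15a (0.69). The 7 became 4 without any 1 of the untreated arrays, 3 without IFNβ replicate 1 and 2 without IFNβ replicate 2.

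The falls were smaller than the rises. Pdgfb, a growth factor for mesenchymal cells, read 7.38, 6.99 and 7.08 untreated and 6.10, 5.78 and 5.62 treated, the largest fall among genes detected in both groups. All treated arrays were lower, and the change was -1.31 ± 0.15 (adjusted p = 3.0e-05). Its relative Pdgfa fell by 0.60. Sox11, a transcription factor of embryonic progenitors, read 9.85, 9.82 and 9.80 untreated and 8.66, 8.65 and 8.56 treated (-1.20 ± 0.13, adjusted p = 1.3e-05), but a second Sox11 probe did not pass (-0.24, adjusted p = 0.39). Atp6v0a1, a subunit of the proton pump that acidifies lysosomes, fell by 1.16 ± 0.16, and the stearoyl-CoA desaturase gene Scd2 by 1.11 ± 0.22. Zcchc18 read 6.16, 6.03 and 6.07 untreated and 5.11, 5.13 and 4.62 treated (-1.13 ± 0.13). It was undetected on all WT arrays, where a fall could not be seen. The fitted difference of -1.17 ± 0.18 (adjusted p = 0.0031) rests on that undetected level, so it does not show a different response. Egln3 and Egln1, oxygen-sensing prolyl hydroxylases, fell by 0.95 and, to below detection on 3 of 3 treated arrays, by at least 1.50-fold. A second Egln1 probe fell by 0.62 and a further probe did not pass (-0.23, adjusted p = 0.51). Fzd3, a Wnt receptor, fell by at least 1.39-fold.

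In groups of general cell function the called share is likewise set beside the 11.4% over all tested genes. It was 2.94% in autophagy, 6.90% in lysosomal, 8.70% in sterol and lipid and 6.06% in cell cycle genes. It was 10.0% in p53 target and CDK inhibitor genes and 6.67% in NRF2 genes. With so few genes in each group nothing is read from these shares. None of 28 ribosomal protein genes and none of 25 respiratory chain genes was called, with medians of -0.07 and -0.09. Of 34 autophagy genes, 0 rose and 1 fell, with a median of -0.07: Wipi1, a phosphoinositide-binding protein of early autophagosomes, changed by -0.60, and its call was lost without untreated replicate 2 (-0.49, 0.055). Ulk3, Atg13 and Sqstm1 did not pass. Of 29 lysosomal genes the cholesterol carrier gene Npc2 rose by 0.90 and Atp6v0a1 fell. Of 23 sterol and lipid genes 0 rose and 2 fell, Scd2 and Elovl6 (-0.70). Of 33 cell cycle genes 2 rose and 0 fell, Ccnd2 (0.86) and Mcm6 (0.69), and of 3 other Mcm6 probes 1 did not pass (0.35, adjusted p = 0.53). Of 20 p53 target and CDK inhibitor genes 0 rose and 2 fell, Zmat3 (-0.70) and the CDK inhibitor gene Cdkn1c (-0.47). The Cdkn1c call was lost without untreated replicate 1 (-0.37, 0.12), IFNβ replicate 2 (-0.42, 0.11) or IFNβ replicate 3 (-0.40, 0.12). Of 15 NRF2 genes 1 rose, Hmox1 (0.46), a call lost without untreated replicate 1 (0.41, 0.063), IFNβ replicate 2 (0.42, 0.066) or IFNβ replicate 3 (0.44, 0.055).

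The share was 17.2% in matrix, 14.3% in growth factor and Wnt, 24.1% in developmental transcription factor and 16.7% in hypoxia and glycolysis genes. Among 29 matrix genes 5 rose and 0 fell, Mmp13, Thbs1, Timp3, Timp1 and Tnc, by 0.37 to 0.92. This count became 3 without untreated replicate 1, untreated replicate 2 or WT IFNβ replicate 2, 2 without untreated replicate 3 or IFNβ replicate 1, and 1 without IFNβ replicate 3. Among 35 growth factor and Wnt genes 3 rose and 2 fell. Sfrp1, a secreted Wnt antagonist, rose at least 1.79-fold from below detection and Fgf10 rose by 0.81, while the falls were Pdgfb and Pdgfa. Wnt5a rose by 0.72, a call lost without untreated replicate 2 (0.65, 0.063) or IFNβ replicate 1 (0.54, 0.050). Another Wnt5a probe rose by 1.08 (adjusted p = 2.2e-05). Of 29 developmental transcription factor genes 5 rose and 2 fell, and 1 of the rises, Foxf1, was detected on 0 of 6 DKO arrays. Prrx1, a factor of limb mesenchyme, rose by 0.80, and of 4 other probes 3 rose and 1 did not pass (-0.02, adjusted p = 0.97). Id4 rose by 0.60 and Twist1 by 0.55, and both calls were lost under median scaling (adjusted p = 0.050 and 0.093). Of 18 hypoxia and glycolysis genes, the falls were Egln1 and Egln3 and the rise was Pfkp (0.59), which was not called without untreated replicate 2 (0.58, 0.093), untreated replicate 3 (0.44, 0.13), IFNβ replicate 1 (0.48, 0.11) or IFNβ replicate 3 (0.62, 0.074). Of 9 metabolic genes often induced by interferon, 4 rose, Cmpk2, Ch25h, Upp1 (1.41) and Nampt (1.29). Spr, an enzyme of tetrahydrobiopterin synthesis, fell by 0.50, a call lost without untreated replicate 1 (-0.42, 0.087) or IFNβ replicate 2 (-0.41, 0.097).

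Some rising genes were neighbours on the chromosome. Among the 226 larger rises, 71 genes (31.4%) stood in 26 runs of at least 2 tested genes adjacent in the RefSeq gene order, and 10 of these runs held 3 or more. The longest, of 6 genes each, were the Ifi200 run on chromosome 1 and the Oas run on chromosome 5. Shorter runs held Igtp and its neighbours on chromosome 11, Ifit2, Ifit3 and Ifit1bl1 on chromosome 19, Gbp5, Gbp7 and Gbp3 on chromosome 3, and the pairs Mx1 with Mx2 and Rsad2 with Cmpk2.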

How the data were processed

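RNA from 12 arrays (WT or DKO fibroblasts, untreated or given IFNβ, 3 arrays per group) was read on Illumina mouse bead arrays after biotin labelling, per the labels' protocols. The deposited scanner file holds a linear intensity per probe, not yet normalized, with a detection p-value per probe, per the file headers. The authors also deposited log2 values, used here as an alternative. The software behind these values was not stated by the labels or headers.

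Intensities were background-corrected with normexp (offset 16, negative controls inferred from the detection p-values), quantile-normalized and put on the log2 scale in R 4.3.3 with limma 3.58.1. Of 45281 probes, 34885 had 1 gene name, 18 several and 10378 none. Probes with a detection p below 0.01 on at least 3 arrays were kept (15856, of which 13737 were named), and the kept probe with the highest mean stood for its gene, giving 8898 genes. A linear model over the 4 groups was fitted with lmFit and eBayes. The contrasts were DKO treated minus untreated, the same in WT, and their difference. The Benjamini-Hochberg threshold was 0.05, errors are standard errors and intervals are 95%. The scripts were tested on simulated data. The number of arrays limits the precision.

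Members and gene lists were chosen with earlier results of these data known. The genes named were the 12 largest rises and falls detected in both DKO groups, the 6 rises and 6 falls with the largest lower bounds (predicted and unnamed transcripts were skipped in both), fixed pathway genes, up to 4 called genes per list, members called against a list's direction, and genes with the largest genotype differences. The neighbour runs and Oas1c, Oas1b, Oas1g, Oas1d, Ifit2, Ifit1bl1, Apobec3, Nmi, Gbp5 and Foxf1 were named after their values were seen.

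Replicate numbers were checked for pairing. After group means were removed, arrays with the same number within a genotype correlated at 0.34 to 0.64 in all 6 pairs, against 0.06 to 0.25 for other numbers in the same intensity set and -0.47 to -0.35 across sets. The fit with the replicate number as a block is therefore given where it changes the DKO call of a gene described above. For differences between genotypes, the block was read gene by gene only where the fit without it called a difference. Differences said not to pass therefore come from the fit without the block. Alternatives covered background correction, scaling, filters, probe choice, blocks, array weights and leaving out each array.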

Additional observations from a re-analysis of the deposited data

Results flagged for a closer look

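The response to IFNβ differed between DKO and WT cells in 93 of 8898 genes by the test of the difference itself (limma, Benjamini-Hochberg adjusted). Values below are the DKO change minus the WT change on the log2 scale for those among them that were called in DKO cells and named by the rule given under the processing. Genes named after their values were seen, Oas1g, Ifit2, Samd9l, Pou3f1 and Itgb6, are not among them, and their values were -1.78, -0.87, -1.62, 0.88 and 1.05.

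The rise was smaller in DKO cells for most of them. Among antiviral effectors and the ISG15 system the difference was -2.87 for Oasl2, -2.65 for Ifit3, -2.63 for Rsad2, -2.26 for Usp18, -2.25 for Cmpk2, -2.21 for Oasl1, -2.19 for Isg15, -1.70 for Uba7, -1.38 for Mx2, -1.20 for Eif2ak2, -1.12 for Oas2, -1.10 for Ube2l6 and -1.04 for Oas1a. Among chemokines it was -2.19 for Cxcl9, -1.99 for Cxcl10, -1.55 for Ccl2 and -1.39 for Ccl7. Among GTPases it was -2.01 for Igtp and -1.73 for Ifi47. It was -1.87 for Parp14, -1.46 for Lgals9, -1.32 for Ly6e, -1.31 for Irf7, -1.23 for Tap1, -1.14 for Dtx3l, -1.06 for Trim21, -0.75 for Cd274, -0.75 for Trim30a, -0.74 for the haem oxygenase gene Hmox1 and -0.68 for Tlr3. For Zcchc18, which fell in DKO cells, it was -1.17. That gene was undetected on all WT arrays, where a fall could not be seen, so its value does not show a different response. Cxcl9, Oas2, Oas1a, Tap1, Trim30a and Tlr3 were undetected on the 3 untreated WT arrays, so their WT rise is a lower bound.

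Other probes of these genes did not always give a called difference. Those not called were at 0.00 and -0.33 for Parp14 (adjusted p = 1.0 and 0.75), -0.15 for Dtx3l (0.96), -0.47 for Trim21 (0.63), -0.06 for Oasl1 (0.98), -0.53 for Oasl2 (0.28), -1.26 for Cxcl10 (0.45), -1.10 for Ccl7 (0.051) and -1.09 for Ube2l6 (0.069). Further probes of Oasl1 (-1.51) and Oasl2 (-1.23) were called, as were those of Ifit3 (-1.84), Usp18 (-1.95), Lgals9 (-1.09) and Ly6e (-1.21). Some named genes had a called difference only with a probe that did not stand for the gene. These were Casp4 (-2.25), Irgm1 (-1.73), Il15 (-1.72 and -0.97), Gbp3 (-1.46), Gbp7 (-1.10) and Ifi204 (1.23).

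The difference was above 0 for the Ifi200 genes Ifi205 (3.92), Ifi211 (2.55), Ifi213 (1.96) and Ifi207 (1.41). It was also above 0 for the transcription factor genes Egr2 (1.54) and Klf2 (1.28), the nuclear body gene Sp100 (1.49), and for Nrap (1.42), Pstpip1 (1.41), Serpinb9f (1.29), the nuclease gene Dnase1l3 (1.23) and the calcium channel gene Cacna1h (0.93). Ifi207 and Sp100 were undetected on the 3 untreated WT arrays, so their WT rise is a lower bound and these values do not show a larger DKO response. Ifi205, Ifi211, Nrap, Pstpip1, Serpinb9f, Dnase1l3 and Cacna1h were undetected on every WT array, so any WT change below detection was not measured. Nrap, Serpinb9f, Dnase1l3 and Cacna1h were also undetected on the 3 untreated DKO arrays. Other probes gave 1.50 for Ifi213 (called), and 2.35 (called) and 0.72 (adjusted p = 0.33) for Ifi205. Groups of 3 arrays are too small for the outlier test, which was not run.

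The call of 11 of these differences was lost when a single array was left out, each array named here by group and replicate number with the range of values without it. For Cacna1h these were WT untreated 2, WT IFNβ 1, DKO untreated 2 and 3 (0.91 to 0.96, adjusted p 0.052 to 0.061). For Ccl2 these were WT untreated 2, WT IFNβ 1 and 3, DKO untreated 2, DKO IFNβ 1 and 3 (-1.58 to -1.36, adjusted p 0.056 to 0.077). For Cd274 these were WT untreated 2 and 3, WT IFNβ 1, 2 and 3, DKO untreated 1 and 2, DKO IFNβ 1, 2 and 3 (-0.78 to -0.68, adjusted p 0.06 to 0.11). For Dnase1l3 these were WT untreated 2, WT IFNβ 1 and 2, DKO untreated 2 (1.14 to 1.22, adjusted p 0.053 to 0.065). For Eif2ak2 these were WT untreated 2 and 3, WT IFNβ 1 and 2, DKO untreated 1 and 3, DKO IFNβ 2 and 3 (-1.24 to -1.05, adjusted p 0.074 to 0.14). For Hmox1 these were WT untreated 1, 2 and 3, WT IFNβ 1 and 3, DKO untreated 2 and 3, DKO IFNβ 1, 2 and 3 (-0.79 to -0.66, adjusted p 0.056 to 0.12). For Igtp these were WT untreated 3, WT IFNβ 1, DKO IFNβ 2 and 3 (-1.97 to -1.90, adjusted p 0.052 to 0.072). For Irf7 these were WT untreated 2, WT IFNβ 1 and 3, DKO untreated 1 and 2, DKO IFNβ 1, 2 and 3 (-1.34 to -1.18, adjusted p 0.053 to 0.097). For Oas2 these were WT untreated 2 and 3, WT IFNβ 1 and 2, DKO untreated 2, DKO IFNβ 2 and 3 (-1.15 to -1.03, adjusted p 0.056 to 0.075). For Tlr3 these were WT untreated 1, 2 and 3, WT IFNβ 1 and 2, DKO untreated 1, 2 and 3, DKO IFNβ 1 and 2 (-0.74 to -0.62, adjusted p 0.056 to 0.13). For Trim30a these were WT untreated 2 and 3, WT IFNβ 1, 2 and 3, DKO untreated 1 and 2, DKO IFNβ 1 and 3 (-0.82 to -0.70, adjusted p 0.067 to 0.16).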

How the results depend on the processing

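Of 163 named genes called in DKO cells, 100 kept their call under every alternative that tested them, 29 lost it without some single array, and 0 turned direction. The count of 1015 was 1923 with the replicate block, 1718 with the intensity set as a block, 1660 with array weights and 307 within the lower-intensity set, and ranged from 713 to 1029 when 1 array was left out. Rises made up 43.4% of calls with the set block and 44.0% with array weights. The replicate block added 13 named genes to the calls and changed no other named call in DKO cells. The 231 genes changed at least 2-fold numbered 135 without background correction, 136 on the authors' log2 values and 145 when detection was required on all 12 arrays, a filter that removes genes undetected before treatment, and 226 to 240 without 1 array.

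The 93 differences between genotypes numbered 254 with the replicate block, 201 with the set block, 161 with array weights, 54 and 28 within the higher and lower sets, 43 among genes detected on all 12 arrays, and 65 to 106 without 1 array. The WT count of 1668 was 2804 with the replicate block, 2611 with the set block, 809 within the higher set and 1198 to 1740 without 1 array. The difference for Trim30a turned from -0.75 to 0.31 without background correction, 0.08 with an offset of 50 and 0.31 on the authors' log2 values; the cause was not tested. The Oas2 difference of -1.12 was -0.30, -0.45 and -0.29 in the same order (adjusted p = 0.48, 0.31 and 0.48). Of 43 named differences, 7, 5 and 7 lost their call under these settings, Cacna1h, Cd274 and Dnase1l3 under all 3 and Lgals9 and Trim21 under the first and last. Median scaling lost 4 calls (Ccl2, Hmox1, Tlr3 and Trim30a), cyclic loess 2 (Tlr3 and Trim30a), testing without a filter 7, and the mean of a gene's probes 1 (Dtx3l, -0.64, 0.19), while the higher and lower sets alone lost 17 and 24. The replicate block lost 0. Of 103 other probes of named genes whose own probe was called, 80 had the same call, 23 were not called and 0 were opposite. Genes near background have understated folds, which limits low-level calls.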

Other observations

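Some large rises in DKO cells belonged to genes in none of the lists, chosen for mention after their values were seen. Plekha4, a phosphoinositide-binding adaptor, rose by 3.44 ± 0.28 (SE) on the log2 scale and Shfl, an inhibitor of viral frameshifting, by 2.82 ± 0.13, and neither differed detectably from WT cells (adjusted p of the difference 0.80 and 0.19, limma). Mov10, an RNA helicase that restricts retroelements, rose by 1.88. Samd9l, an antiviral gene of a growth-restraining family, read 10.59, 10.54 and 10.43 untreated and 12.72, 12.51 and 12.50 treated. It rose by 2.06 against 3.68 in WT cells, a difference of -1.62 (adjusted p = 5.6e-04).

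Pou3f1, a POU-domain transcription factor best known from Schwann cells, read 5.42, 5.54 and 5.30 untreated and 8.49, 8.32 and 8.40 treated. It rose by 2.98 ± 0.10 in DKO cells and by at least 2.87-fold in WT cells, where it was undetected on all 3 untreated arrays. Itgb6, an integrin subunit best known from epithelia, was undetected at 4.34, 4.31 and 4.27 and read 6.30, 6.12 and 6.54 treated, at least 2.76-fold higher. In WT cells it was also undetected before treatment and rose at least 1.32-fold. For Pou3f1 the difference between genotypes rests on that undetected WT level. For Itgb6 both rises start from undetected levels, whose fitted values differed by -0.04 between genotypes, while all treated arrays of both detected it. The 8 epithelial markers beside it had a lower summed level on treated than on untreated arrays, 335 to 357 against 373 to 432.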
